A study of Drosophila simulans and Drosophila sechellia and Drosophila simulans x Drosophila sechellia with 72 samples.

Results

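Sgt encodes the small glutamine-rich tetratricopeptide repeat co-chaperone of Drosophila. It is 1 of the 7836 genes in a table of transcript levels from hybrids of Drosophila sechellia and Drosophila simulans, from D. sechellia and from D. simulans. The gene was chosen by name, because its ratio between the alleles of hybrids differs from its ratio between the parental species. The levels of Sgt in the parents and alleles, the ratios and the difference between them are therefore described here without a test. Tests of Sgt are given only for medium and life stage. Whether values by medium or stage also entered that choice is not known, and the p-values for them are given on the reading that they did not.

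Proteins of the Sgt family bind the chaperones Hsp70 and Hsp90 through their tetratricopeptide repeats. In yeast and mammals they receive newly made tail-anchored membrane proteins, whose single membrane segment lies at the end of the chain, and hand them on to the machinery that inserts them into the endoplasmic reticulum. In mammalian neurons the protein works with Hsc70 and cysteine string protein on synaptic vesicles. D. sechellia is a specialist on noni fruit, whose octanoic acid is toxic to the generalist D. simulans.

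Poly(A) RNA was sequenced from 72 libraries, 24 each of hybrids, D. sechellia and D. simulans, with 12 of each from adults and 12 from larvae. Each library came from a homogenate of 10 whole animals, either adult females or third-instar larvae labelled as female, reared at 20 °C under a cycle of 16 h light and 8 h dark. Flies had octanoic acid or standard medium in the previous and in the current generation, which gives 4 histories, written as the previous and then the current medium with O for octanoic acid and S for standard. There were 3 biological replicates of each of the 24 groups. The sources used here do not give strains, the direction of the cross or the dose of octanoic acid. Whole animals mix all tissues, so fewer cells of a type and less RNA per cell cannot be told apart.

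Values are FPKM, fragments per kilobase of transcript and per 1000000 mapped fragments. A hybrid library has 2 columns, 1 for the D. sechellia allele and 1 for the D. simulans allele, and their sum is used as the level of the hybrid. The columns differed in scale. The FPKM of all genes in adults summed to 766311 to 1034077 in the D. sechellia allele columns, 122009 to 192420 in the D. simulans allele columns, 1090157 to 1454241 in D. sechellia and 483241 to 515024 in D. simulans. Allele ratios are therefore also given after scaling each column to sum to 1000000, here called scaled FPKM. In adults of both parents and of hybrids, the 4 yolk and eggshell genes Yp1, Vm26Aa, Vm26Ab and Cp36 summed to at least 1126 FPKM. In larvae they reached at most 33.5 FPKM, with all 4 at 0 in the larval D. sechellia allele columns. Cp36 alone had a lowest value of 7.46 FPKM in adult D. sechellia. The 6 larval genes Lcp1, Lcp4, Lcp65Ac, Fbp2, Lsp1beta and Lsp1gamma summed to at least 1896 FPKM in larvae. In adults they summed to 184 to 1776 FPKM in D. sechellia and 2.39 to 87.8 FPKM in D. simulans. In adult hybrids they reached at most 140 FPKM in D. sechellia allele columns and 35.3 FPKM in D. simulans allele columns. The 4 testis genes dj, Mst98Cb, Prosalpha3T and ProtB summed to at most 0.690 FPKM in adults, but to 47.5 to 282 FPKM in the larval D. sechellia allele columns, 8.85 to 161 FPKM in the D. simulans allele columns, 135 to 426 FPKM in D. sechellia larvae and 64.7 to 579 FPKM in D. simulans larvae, although larvae are described as female. All 4 were at 0 in every allele column of adult hybrids. The part of these tissues, and of the larval transcripts in adults, in the levels of Sgt was not tested.

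In hybrids nearly all of the Sgt signal lay in the D. sechellia allele columns, in every library of both stages. As FPKM the D. sechellia allele stood above the range of D. sechellia itself in adults, and overlapped with it in larvae. As scaled FPKM it did not overlap in either stage, and was 9.31-fold higher in adults and 4.78-fold higher in larvae. The D. simulans allele stood far below the level of D. simulans in both stages. The parental species differed far less from each other.

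In adult hybrids the D. sechellia allele of Sgt had 817, 818 and 1033 FPKM on OO, 911, 777 and 941 FPKM on OS, 993, 1186 and 678 FPKM on SO and 1163, 878 and 898 FPKM on SS. The D. simulans allele in the same libraries had 1.89, 0 and 4.01 FPKM on OO, 0.968, 3.49 and 2.74 FPKM on OS, 4.30, 1.70 and 0.873 FPKM on SO and 3.96, 5.92 and 1.82 FPKM on SS. No history set the allele columns apart, and the lowest D. sechellia allele value was over 100 times the highest D. simulans allele value. Adult D. sechellia had 144, 129 and 130.3 FPKM on OO, 113, 168 and 129 FPKM on OS, 183, 143 and 182 FPKM on SO and 121, 160.2 and 141 FPKM on SS. Adult D. simulans had 98.5, 95.6 and 79.2 FPKM on OO, 85.5, 78.3 and 85.0 FPKM on OS, 83.5, 85.2 and 84.7 FPKM on SO and 88.5, 79.3 and 88.2 FPKM on SS. The 12 columns of each kind did not overlap with those of any other kind in adults, and the order was the D. sechellia allele, D. sechellia, D. simulans and the D. simulans allele.

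In larval hybrids the D. sechellia allele of Sgt had 367, 597 and 564 FPKM on OO, 357, 553 and 577 FPKM on OS, 252, 425 and 586 FPKM on SO and 322, 365 and 687 FPKM on SS. The D. simulans allele had 1.85, 3.32 and 0 FPKM on OO, 1.14, 1.04 and 2.17 FPKM on OS, 4.29, 8.03 and 3.18 FPKM on SO and 0.833, 1.19 and 6.79 FPKM on SS. The alleles were again far apart in every library. D. sechellia larvae had 212, 193 and 219.5 FPKM on OO, 199.99, 266 and 183 FPKM on OS, 281, 176 and 239 FPKM on SO and 181, 247 and 228 FPKM on SS. D. simulans larvae had 97.0, 98.3 and 59.6 FPKM on OO, 86.3, 101 and 73.4 FPKM on OS, 83.3, 91.6 and 68.4 FPKM on SO and 75.6, 82.4 and 69.0 FPKM on SS. The order of the kinds was that of adults, but here the lowest value of the D. sechellia allele, that of SO replicate 1, fell among those of D. sechellia.

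**Figure D1:**
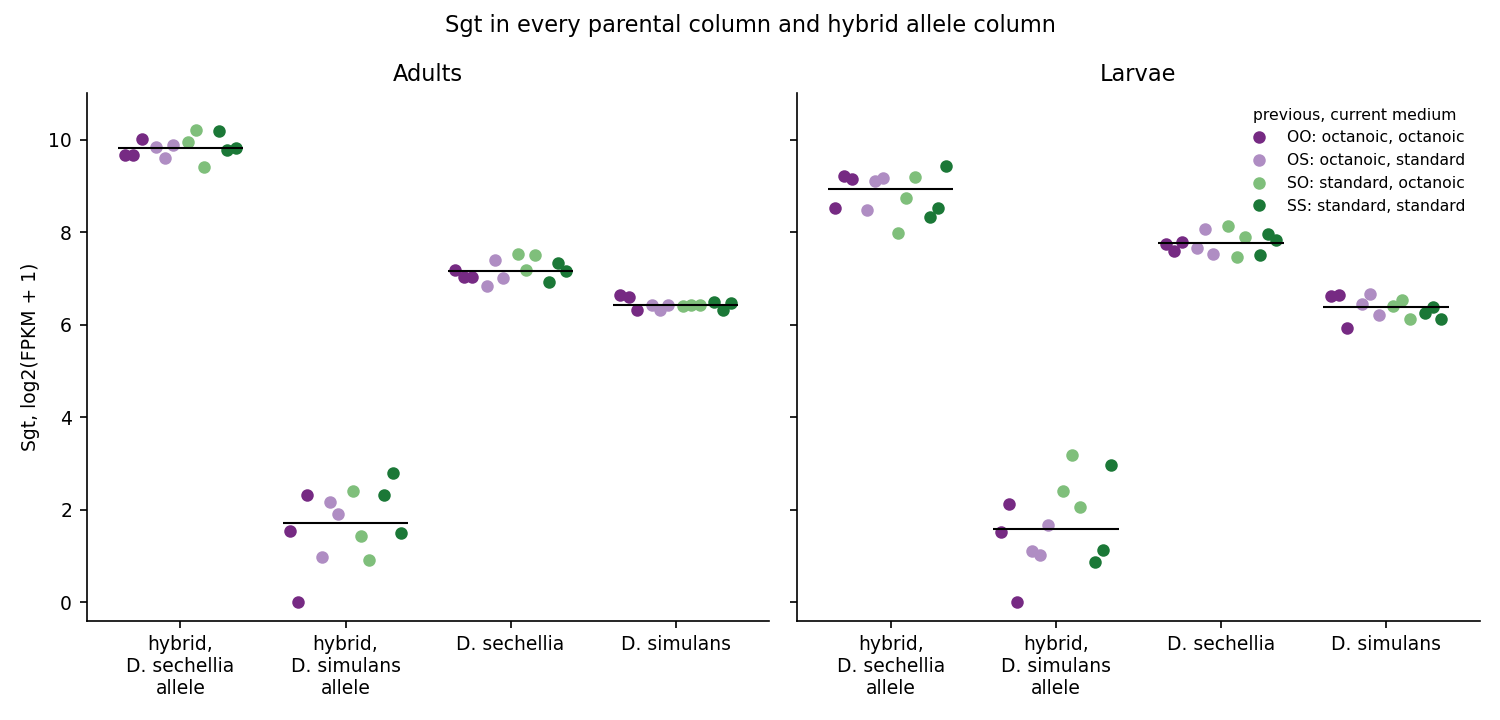
Sgt as log2(FPKM + 1) in each of the 96 columns, by kind of column on the horizontal axis and coloured by medium history. Black lines are medians of 12 columns. The D. simulans allele columns lie at the bottom of both panels, with 1 column at 0 in each, and the D. sechellia allele columns at the top.

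Across all histories the D. sechellia allele averaged 924 ± 151 FPKM in adult hybrids, against 145 ± 23.1 FPKM in adult D. sechellia (SD, n = 12 each), 6.36-fold. In larvae it averaged 471 ± 138 FPKM, against 219 ± 34.3 FPKM in D. sechellia (SD, n = 12 each), 2.15-fold. The D. simulans allele had a median of 2.31 FPKM in adult hybrids, against 85.1 FPKM in adult D. simulans, and of 2.01 FPKM in larval hybrids, against 82.9 FPKM in larval D. simulans. The highest single D. simulans allele value was 5.92 FPKM in adults and 8.03 FPKM in larvae, below the lowest values of D. simulans, 78.3 and 59.6 FPKM. Because 1 of the 12 D. simulans allele columns of each stage is listed at 0, no mean is given for them.

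Within single hybrid libraries the D. sechellia allele made up 99.33% to 100% of the summed Sgt FPKM in adults and 98.1% to 100% in larvae. In the 11 adult libraries with a D. simulans allele value above 0, the D. sechellia allele was 148 to 941 times as high, with a median of 344. In the 11 such larval libraries it was 52.9 to 534 times as high, with a median of 198. The values under these ratios are at most 8.03 FPKM, so a small change in the denominator moves the ratio.

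These low values were few in kind. Each D. simulans allele column was given a step size relative to that of SS replicate 1 of its stage. It came from the ratios of low values of the same genes between the columns. Sgt values were divided by it, and the smallest result above 0 of each stage was taken as 1 step. That column and the column at 0 are therefore whole multiples by construction. The adult D. simulans allele values then lay within 0.172 of whole multiples from 0 to 10, which sum to 46 over 12 columns. The larval ones lay within 0.223 of whole multiples from 0 to 9, which sum to 36. Whether 1 step is 1 fragment cannot be told from FPKM. Read depth is unknown, and no limit is given for the columns listed at 0.

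The sum of both alleles put hybrids above both parents in adults. It was 927 ± 152 FPKM in adult hybrids, against 145 ± 23.1 FPKM in D. sechellia and 86.0 ± 6.18 FPKM in D. simulans (SD, n = 12 each), and no library of a parent reached the hybrid range. In larval hybrids it was 474 ± 139 FPKM, against 219 ± 34.3 FPKM in D. sechellia and 82.2 ± 13.3 FPKM in D. simulans (SD, n = 12 each), and the hybrid range overlapped with that of D. sechellia. On the log2(FPKM + 1) scale hybrids lay above the mean of the parents by 3.03 in adults and 1.77 in larvae, where the median over all genes was 0.46 and -0.16. Divided by the total of both allele columns, the sum was 878 per 1000000 in adults and 536 per 1000000 in larvae. That was 7.87 and 3.31 times the share of Sgt in D. sechellia, and 5.11 and 3.24 times that in D. simulans. On this scale the hybrid range overlapped with neither parent in either stage.

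Between the parents the direction depended on the scale. Sgt was 1.69-fold higher in D. sechellia adults than in D. simulans adults as FPKM, a difference of 0.74 on the log2(FPKM + 1) scale (SE 0.088), beside a median of 0.72 over all genes. In larvae it was 2.66-fold higher in D. sechellia, a difference of 1.40 (SE 0.15) beside a median of 0.56. After rescaling all libraries by median ratios, which moves the median of all genes to 0.071 in adults and 0.037 in larvae, the difference of Sgt was -0.051 in adults and 0.78 in larvae. As scaled FPKM, Sgt was at 111 ± 20.2 in D. sechellia adults and 172 ± 11.9 in D. simulans adults, and at 162 ± 15.4 in D. sechellia larvae and 165 ± 15.9 in D. simulans larvae (SD, n = 12 each). The larval ranges overlapped on that scale and the adult ranges did not.

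The allelic ratio did not follow the parental ratio on any of these scales. As scaled FPKM, the D. sechellia allele of Sgt averaged 1037 ± 192 in the 12 adult hybrids (SD) and 775 ± 193 in the 12 larval ones. The D. simulans allele had a median of 14.6 in adults and 7.71 in larvae, with a highest value of 30.8 and 30.9. The mean log2 allelic ratio, D. sechellia over D. simulans with 1 added to each scaled value, was 6.32 in adults (SE 0.34) and 6.51 in larvae (SE 0.32). The log2 ratio between the parents on the same scale was -0.64 in adults and -0.028 in larvae. The parental ratio minus the allelic ratio was thus -6.96 (SE 0.42) in adults and -6.54 (SE 0.38) in larvae, beside medians of -0.18 and -0.15 over all genes. The 2 columns listed at 0 enter these means through the added 1. Without adult OO replicate 2 the adult allelic ratio was 6.01, and the larval one without larval OO replicate 3 was 6.22.

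**Figure D2:**
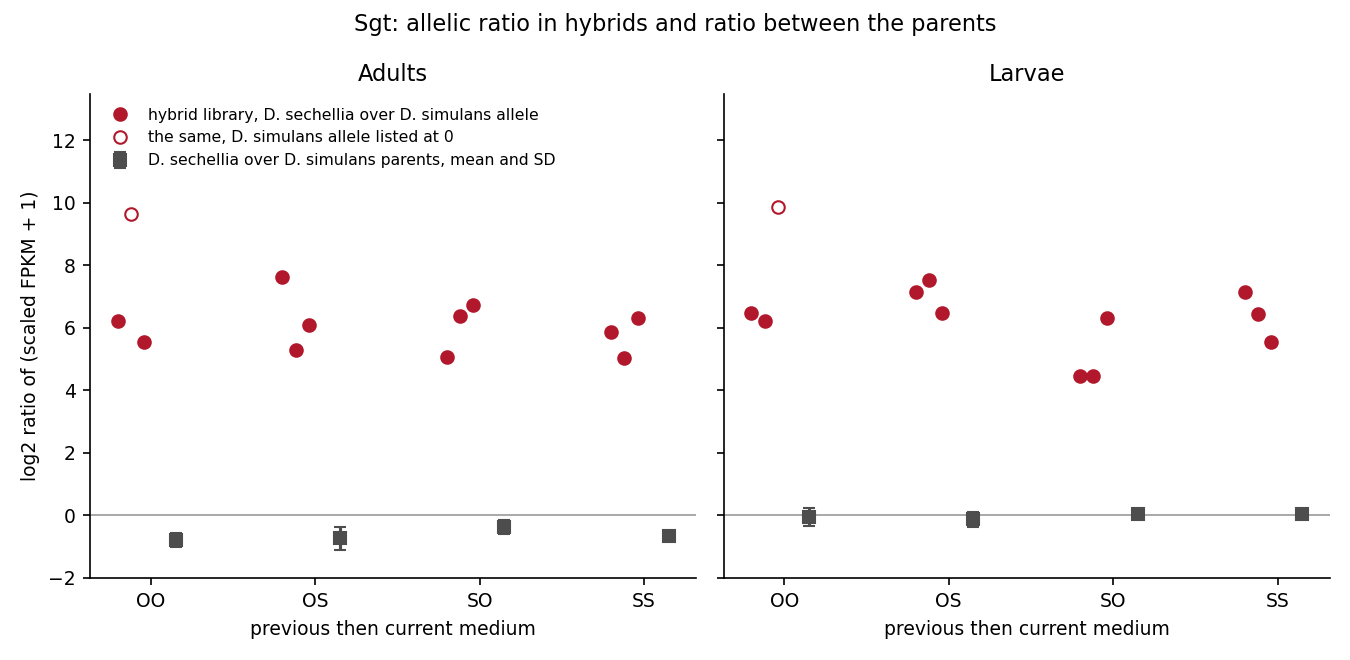
Log2 ratio of Sgt, D. sechellia over D. simulans, from scaled FPKM with 1 added, for each medium history. Red points are the allelic ratios of single hybrid libraries, open where the D. simulans allele is listed at 0, and grey squares are the ratios between the parents with their SD. All allelic ratios lie above 4 and all parental ratios lie between -0.78 and 0.037.

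Split by allele, the D. sechellia allele lay above D. sechellia by 3.20 log2 units in adults and 2.21 in larvae (SE 0.30 and 0.27), and the D. simulans allele lay below D. simulans with a difference of -3.75 in adults and -4.33 in larvae (same SEs). Both alleles thus stood apart from the medians over all genes, 0.093 and -0.37 for the D. sechellia allele and 0.019 and -0.41 for the D. simulans allele. The SEs of these differences, and of the parental minus allelic difference, rest on 1 spread pooled over parental and allele columns. The 2 columns of a library were not paired there. Scaled D. simulans allele values spread more, with an SD of 62.6% of their mean in adults and 87.3% in larvae. In the other kinds of column it was at most 24.9%. The allelic ratio of Sgt ranked 22 of 6183 genes in adults and 14 of 6994 in larvae, counted from the highest. The parental minus allelic difference ranked 7 of 6501 and 6 of 7283, counted from the lowest. Next to Sgt stood a6 with -7.23 and CG8078 with -6.54 in adults, and IP3K1 with -6.58 and Sox14 with -5.99 in larvae. With median-ratio rescaling the D. sechellia allele lay above D. sechellia by 2.21 in adults and 1.80 in larvae. The D. simulans allele minus D. simulans was then -3.89 and -4.02. Medians over all genes were -0.53 and -0.58 for the D. sechellia allele and -0.12 and -0.28 for the D. simulans allele.

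Other genes had a near-empty allele column too. With thresholds chosen after the values were seen, 1887 genes had at least 20 FPKM in every adult parental library, and the D. simulans allele had a median under 5 FPKM in 243 of them (12.9%), Sgt included. The D. sechellia allele had such a median in 157 (8.32%). In larvae the counts were 126 of 1365 genes (9.23%), again with Sgt, and 210 (15.4%). In 6 adult and 4 larval genes of these sets both alleles were listed at 0 in every hybrid library, among them Arpc1 and the ribosomal protein gene RpL39 in both stages. Sgt was 1 of 7 adult genes in which the D. simulans allele was that low and the D. sechellia allele exceeded every D. sechellia library, with CG10098, CG4036, CG4603, CG9775, Clamp and Pka-C1. In larvae Sgt was not among the 4 such genes, since its D. sechellia allele overlapped with D. sechellia as FPKM, though not as scaled FPKM. The reverse pattern, a low D. sechellia allele with the D. simulans allele above every D. simulans library, was seen in 9 adult and 10 larval genes. The rule that assigned hybrid reads to alleles is not given in the sources used here, and its part in the low column of Sgt was not tested.

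The medium had no effect on Sgt that passed the threshold, an adjusted p under 0.05, in either generation, in either stage or in any genotype. In adults the difference between octanoic acid and standard in the current generation was -0.027 in hybrids, 0.13 in D. sechellia and 0.058 in D. simulans on the log2(FPKM + 1) scale (SE 0.12, adjusted p of 0.940, 1 and 1 in limma). Their 95% intervals ran from -0.28 to 0.23, from -0.12 to 0.38 and from -0.20 to 0.31. For the previous generation the adult differences were -0.11 in hybrids, -0.19 in D. sechellia and 0.031 in D. simulans (adjusted p of 0.765, 1 and 1 in limma). The largest of these, in D. sechellia, had an interval from -0.44 to 0.065, and its groups overlapped. Of all 6420 genes, 6.73%, 0.0156% and 0% were called for the current medium in hybrids, D. sechellia and D. simulans, and 1.7%, 0.0779% and 0% for the previous medium. For the interaction of both generations it was 1.48%, 0.0623% and 0%. At an unadjusted p under 0.05 the D. simulans contrasts held 15, 21 and 8 genes. Each contrast drew on the spread of all adult groups, hybrids included. With each genotype fitted alone the SE of Sgt was 0.16 in hybrids, 0.13 in D. sechellia and 0.066 in D. simulans.

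In larvae the intervals were wider. The current medium gave -0.034 in hybrids, 0.016 in D. sechellia and 0.018 in D. simulans (SE 0.21, adjusted p of 0.974, 1 and 1 in limma), and the previous medium 0.24, -0.075 and 0.12 (adjusted p of 0.760, 1 and 0.942 in limma). Of all 7167 genes, 0.949%, 0% and 0.014% were called for the current medium in larval hybrids, D. sechellia and D. simulans, and 0.67%, 0.014% and 0.293% for the previous medium. The interval for the previous medium in larval hybrids ran from -0.20 to 0.67, so that a difference as large as 0.67 is within it. The interval for D. sechellia larvae reached -0.51 and that for D. simulans larvae 0.55. These intervals rest on 1 spread pooled over all larval groups. With each genotype fitted alone the SE was 0.29 in hybrids, 0.15 in D. sechellia and 0.16 in D. simulans. The pooled interval is therefore narrow for hybrids, and a difference above 0.67 is not excluded there. The effect in D. sechellia minus that in D. simulans was 0.072 (current medium) and -0.22 (previous medium) in adults, and -0.0023 and -0.19 in larvae (adjusted p from 0.878 to 1 in limma). Such differences were called for 0.0156% and 0.0312% of genes in adults and for 0% in larvae, where 28 and 553 genes had an unadjusted p under 0.05. The interaction of both generations was not called in any genotype, with adult differences of 0.085 in hybrids, -0.27 in D. sechellia and 0.14 in D. simulans. In larvae it was called for 0.781%, 0% and 0.014% of genes in hybrids, D. sechellia and D. simulans.

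**Figure D3:**
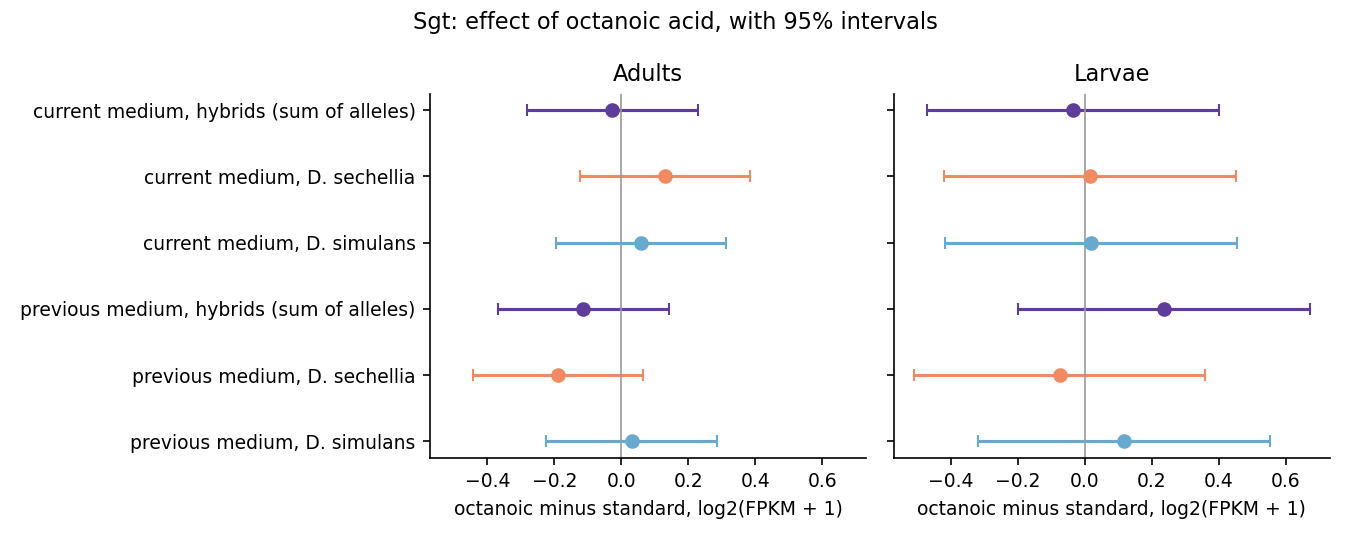
Effect of octanoic acid on Sgt, as the difference between octanoic acid and standard medium on the log2(FPKM + 1) scale, for hybrids, D. sechellia and D. simulans. Points are estimates, and bars are 95% intervals from 1 spread pooled over the genotypes of each stage. Every interval includes 0, and the larval intervals are wider than the adult ones.

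The allelic ratio of Sgt was high on every history. In adults its log2 value averaged 7.14 ± 2.18 on OO, 6.33 ± 1.19 on OS, 6.06 ± 0.88 on SO and 5.74 ± 0.64 on SS (SD, n = 3 each). The parental ratio on the same scale was -0.78, -0.74, -0.37 and -0.66. In larvae the allelic ratio averaged 7.53 ± 2.05 on OO, 7.05 ± 0.55 on OS, 5.08 ± 1.07 on SO and 6.38 ± 0.81 on SS (SD, n = 3 each), against parental ratios of -0.059, -0.13, 0.037 and 0.036. The adult ratio differed by 0.56 between media of the current generation and by 0.84 between media of the previous one (SE 0.69, adjusted p of 0.967 and 0.965 in limma). In larvae the differences were -0.41 and 1.56 (SE 0.65, adjusted p of 0.942 and 0.992 in limma). Media effects on the allelic ratio were called for 0% of adult genes, with 314 and 294 at an unadjusted p under 0.05, and for 0.0429% of larval genes in either generation. The larval difference for the previous medium had an unadjusted p of 0.0335 in limma and did not pass the correction. It was 0.97 to 1.89 when each hybrid library was left out in turn, and lowest without larval OO replicate 3. The adult difference for the previous medium was 0.22 to 1.23, lowest without adult OO replicate 2, and the larval one for the current medium was -1.001 to -0.083, with the extremes without larval OO replicates 3 and 2.

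Life stage passed the threshold for Sgt in 1 of the parental species, D. sechellia. It fell to 145 ± 23.1 FPKM in adult D. sechellia, against 219 ± 34.3 FPKM in D. sechellia larvae (SD, n = 12 each). The log2 difference was -0.59 (SE 0.090, adjusted p = 3.33e-07 in limma), or -0.91 with median-ratio rescaling, and the ranges overlapped. In D. simulans Sgt was at 86.0 ± 6.18 FPKM in adults and 82.2 ± 13.3 FPKM in larvae (SD, n = 12 each), a difference of 0.078 (SE 0.090, adjusted p = 0.435 in limma). The hybrid sum rose to 927 ± 152 FPKM in adults, against 474 ± 139 FPKM in larvae, a difference of 1.01 (SE 0.16, adjusted p = 1.18e-05 in limma). That call was lost with median-ratio rescaling, which gave -0.080 (adjusted p = 0.549 in limma) and moved the median of all genes to -0.22, against 0.67 without it. Whether the stage difference itself differs between the genotypes was not tested.

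The table holds 52 genes of 4 lists around Sgt. They are 19 Hsp70 and Hsp90 chaperones and co-chaperones, 13 genes of tail-anchor insertion and targeting to the endoplasmic reticulum, 16 SNAREs and other tail-anchored proteins, and 4 small or inducible heat shock proteins. As written the 4 lists held 50, 40, 34 and 20 names, and names not found in the table were left out. Hsc70-4, Csp and Hsp83 were not analysed here. The lists were chosen with earlier results of these data known, and most listed genes are named for their small p. Their p-values below may therefore not be independent of that choice. Among medians per kind of column, 0 of the 52 stood above Sgt in the D. sechellia allele columns of either stage, and 45 stood above it in the D. simulans allele columns of either stage. In the parents 10 stood above it in D. sechellia adults, 11 in D. simulans adults, 8 in D. sechellia larvae and 10 in D. simulans larvae. FPKM are per length, but how many fragments of a gene could be assigned to an allele is not known, so the order within allele columns is a description of those columns.

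The direction of the allelic ratio of the other genes often turned with the scale of the allele columns. With unscaled columns the median log2 ratio of all genes was 1.89 in adults and 0.36 in larvae, against -0.11 and -0.47 with each column scaled to 1000000. Hop, the co-chaperone that links Hsp70 to Hsp90, had a median of 16.1 FPKM for the D. sechellia allele and 10.97 FPKM for the D. simulans allele in adult hybrids, against 86.2 FPKM in D. sechellia and 115 FPKM in D. simulans. Its log2 allelic ratio from scaled FPKM was -2.14 in adults and -2.92 in larvae (adjusted p = 0.00160 and 0.000350 in limma). With unscaled columns it was 0.25 in adults (adjusted p = 0.596 in limma), of the other sign, and -1.47 in larvae (adjusted p = 0.00862 in limma). The listed gene CG1598 was lower for the D. sechellia allele from scaled FPKM, with -2.42 in adults and -2.50 in larvae (adjusted p = 0.000276 and 3.63e-05 in limma), and with unscaled columns it was at -0.020 in adults (adjusted p = 0.963 in limma) and -1.26 in larvae (adjusted p = 0.00130 in limma). The listed gene CG7546 had 0.23 in adults (adjusted p = 0.435 in limma) and -1.06 in larvae (adjusted p = 0.00676 in limma) from scaled FPKM, against 2.38 (adjusted p = 4.69e-07 in limma) and 0.027 (adjusted p = 0.933 in limma) with unscaled columns.

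From scaled FPKM, 4 of the 19 chaperones and co-chaperones had a higher and 9 a lower D. sechellia allele in adult hybrids, where 21.3% and 28.2% of all 6183 genes did. With unscaled columns the split turned to 14 and 3 of 18, where 71.4% and 7.25% of 5933 genes were called. In larvae it was 0 and 8 of 18, beside 12.6% and 37.8% of 6994 genes, or 2 and 8 with median-ratio rescaling, where 17.4% and 34% of genes were called, and 8 and 5 with unscaled columns, where 36.9% and 21.2% of 6754 genes were called. Their median log2 ratio from scaled FPKM was -0.35 in adults and -0.60 in larvae, beside medians of -0.11 and -0.47 over all genes. Hsc70-3, the Hsp70 of the endoplasmic reticulum, had the lower allele on the D. sechellia side. Its D. sechellia allele was at a median of 18.4 FPKM and its D. simulans allele at 278 FPKM in adult hybrids, against 321 FPKM in D. sechellia and 191 FPKM in D. simulans, with a log2 allelic ratio of -6.72 (adjusted p = 4.70e-08 in limma). The Hsp70 cofactor HIP (-6.62), the J-domain gene wus (-7.94) and the J-domain gene mrj (-1.87) also had lower D. sechellia alleles in adults (adjusted p from 1.45e-07 to 1.73e-05 in limma). With unscaled columns Hsc70-3, HIP and wus were still lower, at -4.25, -4.11 and -5.42 (adjusted p of at most 1.21e-06 in limma), but mrj was higher, at 0.57 (adjusted p = 0.0312 in limma).

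In the targeting list 2 alleles were higher and 5 lower of 13 in adults, and 1 and 7 of 13 in larvae, or 8 and 1 and 5 and 4 with unscaled columns. These counts, and those of the next lists, stand beside 21.3% and 28.2% of all genes in adults and 12.6% and 37.8% in larvae from scaled FPKM, and beside 71.4% and 7.25% in adults and 36.9% and 21.2% in larvae with unscaled columns. Sec61beta, a tail-anchored subunit of the translocation channel, had a higher D. sechellia allele, with 2.82 in adults and 3.02 in larvae (adjusted p = 2.46e-07 and 3.21e-07 in limma). The channel subunit Sec61alpha was lower in adults, with -3.17 (adjusted p = 1.07e-05 in limma). Both calls kept their direction with unscaled columns, at 5.22 in adults for Sec61beta and -0.73 for Sec61alpha (adjusted p of at most 0.0438 in limma). Of the 16 SNAREs or tail-anchored proteins, 3 were higher and 8 lower in adults, and 0 and 11 in larvae, with medians of -0.52 and -2.42. With unscaled columns they were 10 and 2 in adults and 2 and 8 in larvae, with medians of 1.83 and -1.16. The SNAREs Syx6 (-2.66), Bet1 (-3.78) and Gos28 (-4.02) were lower in adults (adjusted p from 1.00e-07 to 9.03e-05 in limma). With unscaled columns Bet1 and Gos28 were lower by smaller differences of -1.30 and -1.53 (adjusted p = 0.0198 and 0.0220 in limma), and Syx6 did not pass, at -0.21 (adjusted p = 0.250 in limma). In the heat shock list 1 of 2 tested genes was higher in adults and 1 of 4 in larvae, or 2 of 2 and 2 of 4 with unscaled columns. The gene called from scaled FPKM was the small heat shock protein l(2)efl, with 1.78 and 0.84 (adjusted p = 4.77e-05 and 6.64e-05 in limma).

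**Figure D4:**
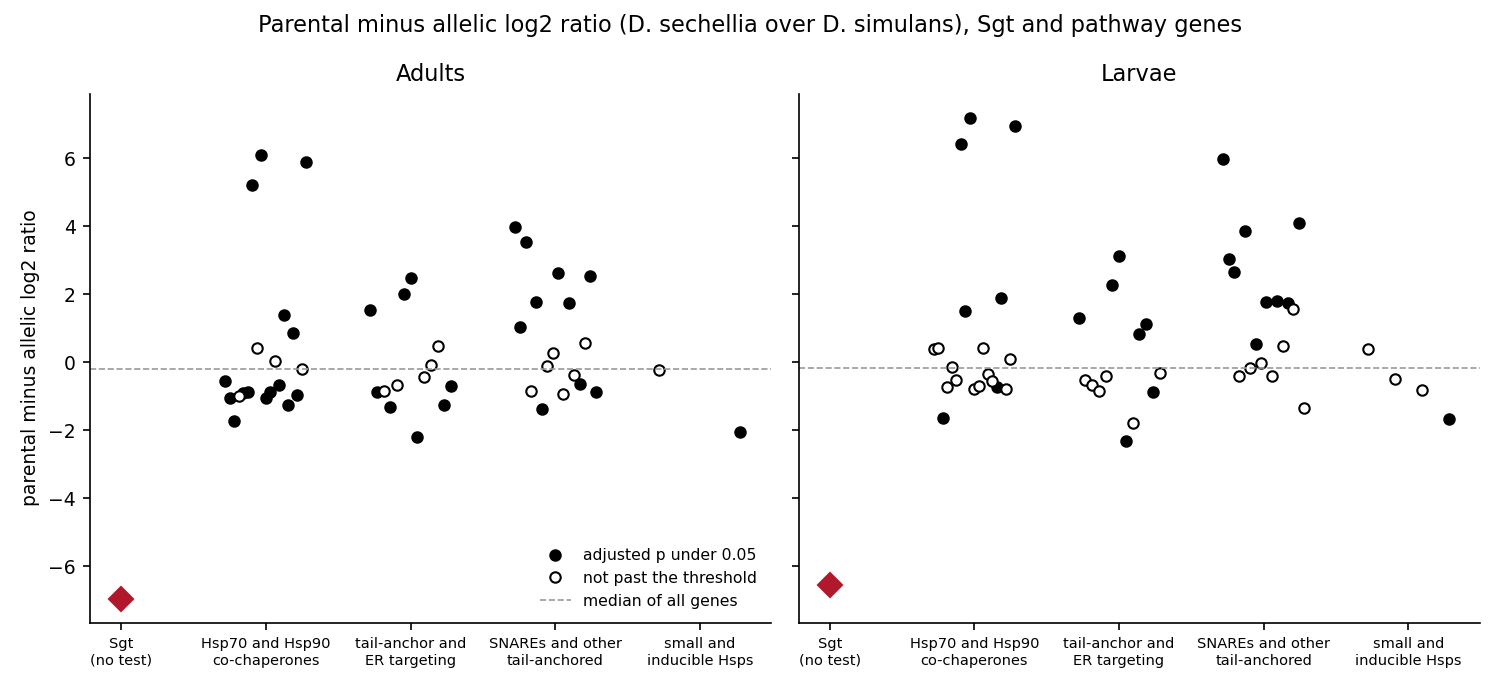
Parental minus allelic log2 ratio, D. sechellia over D. simulans, from scaled FPKM, for Sgt and for the tested genes of 4 lists. Filled circles passed an adjusted p under 0.05 in limma, and the dashed line is the median of all genes. Sgt lies at -6.96 in adults and -6.54 in larvae, below every listed gene, while Hsc70-3, HIP and wus lie above 5.

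The parental minus allelic difference of the chaperone list was called higher in 5 and lower in 10 of 19 genes in adults, beside 22.6% and 33.3% of 6501 genes. In larvae it was 5 and 2 of 19, beside 21.2% and 19.9% of 7283 genes. With median-ratio rescaling the adult split turned to 7 and 3 and the larval one to 7 and 1, beside 34.9% and 17.6% of all adult genes and 28.9% and 12.3% of larval ones. With unscaled columns the splits were 4 and 13 in adults and 6 and 1 in larvae, beside 17.6% and 50.6% of all genes in adults and 27.9% and 10.9% in larvae. With a total shared by both alleles they were 3 and 15 and 4 and 12, beside 8.62% and 69.3% in adults and 13.3% and 50.8% in larvae. Hsc70-3 stood at 6.10 in adults and 7.20 in larvae, HIP at 5.22 and 6.41 and wus at 5.90 and 6.95 (adjusted p of at most 2.49e-09 in limma), and these 3 stayed positive and past the threshold with unscaled columns and with a shared total. DnaJ-1, an Hsp40, was the chaperone of smallest p with a negative difference in adults, -1.73 (adjusted p = 2.07e-09 in limma). The SNARE list had 7 higher and 3 lower of 16 in adults (10 and 1 with rescaling), and 9 and 0 in larvae (11 and 0). The targeting list had 3 and 5 of 13 in adults (5 and 3 with rescaling) and 5 and 2 in larvae. With a shared total the SNARE split was 1 and 11 in adults and 6 and 6 in larvae, and the targeting split 0 and 11 in adults and 2 and 8 in larvae. With unscaled columns these were 5 and 6, 10 and 0, 1 and 7, and 5 and 1. The shares of all genes under each scale are those given for the chaperone list. In the heat shock list l(2)efl alone was called, lower in both stages, at -2.04 in adults and -1.66 in larvae (adjusted p = 6.54e-07 and 3.55e-05 in limma).

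Between the parents, 13 of the 19 chaperone genes were called higher and 1, wus, lower in D. sechellia adults, where 67.2% and 4.92% of 6420 genes were. This split turned to 1 and 9 with median-ratio rescaling, where 31.6% and 25.5% of genes were called. In larvae it was 11 and 0, beside 49.4% and 6.36% of 7167 genes, and 2 and 4 with rescaling, beside 28.4% and 23.6%. The same shares stand beside the other lists. Hop did not differ in adults at the threshold, with -0.36 (adjusted p = 0.0715 in limma), nor in larvae, with 0.014 (adjusted p = 0.961 in limma), but was called lower in both with rescaling, at -1.15 and -0.60. The SNARE list had 16 and 0 of 16 in adults and 13 and 0 in larvae, or 5 and 2 and 7 and 1 with rescaling. The targeting list had 11 and 1 of 13 in adults and 8 and 1 in larvae, or 2 and 3 and 3 and 4 with rescaling. Syb, a SNARE of synaptic and other vesicles, was higher by 1.67 and the tail-anchored Cyt-b5 by 2.32 in adults, and Bet1 by 1.57 in adults and 1.48 in larvae (adjusted p of at most 6.52e-09 in limma). These 3 remained higher with rescaling, at 0.87, 1.52 and 0.78 in adults. In the heat shock list l(2)efl and CG13133 were higher in both stages, at 1.12 and 1.40 in adults and 0.62 and 0.95 in larvae (adjusted p from 1.70e-07 to 0.0223 in limma). With rescaling only CG13133 in adults passed, at 0.74, and l(2)efl was at 0.33 in adults and -0.0068 in larvae.

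Between stages, the fall of Sgt in D. sechellia adults was set beside 11 of 19 chaperone genes called higher and 3 lower in adults, where 44.2% and 36.6% of 7361 genes were. With median-ratio rescaling these were 6 and 6, beside 34.5% and 46.2% of genes. In D. simulans adults 10 were higher and 4 lower, beside 38.5% and 39.5% of all genes, and in hybrid adults 13 and 1 of 18, beside 49.7% and 25.5% of 7181 genes, or 8 and 4 with rescaling, beside 28.9% and 39.6%. In D. simulans the rescaled shares were 33.6% and 46.2%, and its chaperone split with rescaling is not given here. The mitochondrial Hsp70 gene Hsc70-5 was higher in adults by 2.86 in hybrids, 1.57 in D. sechellia and 1.28 in D. simulans (adjusted p of at most 9.96e-09 in limma). Hop was higher in adults by 1.86 in hybrids, 0.44 in D. sechellia and 0.82 in D. simulans (adjusted p of at most 0.00198 in limma), though not in D. sechellia with rescaling. The targeting list had 8 higher and 1 lower of 13 in hybrid adults, 4 and 2 in D. sechellia and 3 and 2 in D. simulans, or 2 and 6, 3 and 9 and 3 and 7 with rescaling. The SNARE list had 9 and 0 of 16, 7 and 6 and 4 and 4 in the same genotypes, or 3 and 10, 5 and 9 and 4 and 9 with rescaling. In each genotype l(2)efl, Hsp60B and Hsp60C were lower in adults and CG13133 was higher. Hsp60B and Hsp60C, chaperonin genes, were near 0 in adults, with a D. sechellia difference of -4.53 for Hsp60B and -5.01 for Hsp60C (adjusted p of at most 4.20e-20 in limma). The 4 testis genes moved in the same direction, with sums of at most 0.690 FPKM in adult D. sechellia and 135 to 426 FPKM in D. sechellia larvae, and their part in these differences was not tested.

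On octanoic acid in the current generation, where Sgt did not pass the threshold in any group, adult hybrids had 0 of 19 chaperone genes higher and 5 lower, beside 1.98% and 4.75% of 6420 genes. They were Hsc70-3 at -0.77, the co-chaperone gene Tpr2 at -0.94, Gp93, the Hsp90 of the endoplasmic reticulum, at -0.70, the mitochondrial Hsp90 gene Trap1 at -0.84, and the myosin chaperone gene unc-45 at -0.62 (adjusted p from 0.00983 to 0.0378 in limma). With median-ratio rescaling only Hsc70-3 and Tpr2 of these passed, where 2.27% of all genes were higher and 2.25% lower. The SNARE Ykt6 was lower by a difference of -2.28 (adjusted p = 0.000281 in limma) and Sec61alpha by -0.57 (adjusted p = 0.0392 in limma). With rescaling Ykt6 passed, Sec61alpha did not, and Trp1 of the targeting list was called higher, at 0.69 (adjusted p = 0.0372 in limma), against 0.55 (adjusted p = 0.0688 in limma) without it. The interaction of both generations was called for Srp54 in adult hybrids, at 1.46 (adjusted p = 0.0418 in limma, beside 0.826% of all genes higher), and for EMC3 in larval hybrids, at 4.33 (adjusted p = 0.000216 in limma, beside 0.642%). Of the 26 media contrasts, the other 23 had 0 calls among the 50 to 52 tested genes of the lists in limma, with 0 to 7 at an unadjusted p under 0.05.

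The genes whose group means followed those of Sgt most closely were CG4603 (Pearson r = 0.988), CG9775 (0.988), pAbp (0.971), eIF-5A (0.969) and CG10098 (0.967), over 32 group means of log2(FPKM + 1) and among 5396 genes with a mean of at least 5 FPKM. These means share libraries, and each kind of column enters once per history and stage. They include the allele columns by which Sgt was chosen, so a high r largely repeats that allele pattern. The correlations are given as a description. In adults CG4603 had a median of 455 FPKM for the D. sechellia allele and 0.901 FPKM for the D. simulans allele, against 72.6 FPKM in D. sechellia and 55.7 FPKM in D. simulans. CG9775 had 169 FPKM for the D. sechellia allele and 3.87 FPKM for the D. simulans allele, against 62.9 FPKM in D. sechellia and 34.4 FPKM in D. simulans. The poly(A)-binding protein gene pAbp had 3020 FPKM for the D. sechellia allele and 56.5 FPKM for the D. simulans allele, against 824 FPKM in D. sechellia and 633 FPKM in D. simulans. The translation factor gene eIF-5A kept a D. simulans allele of 789 FPKM beside a D. sechellia allele of 7827 FPKM. The next gene in the order was Smg5 with 0.967, so the choice of 5 marks no gap.

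**Figure D5:**
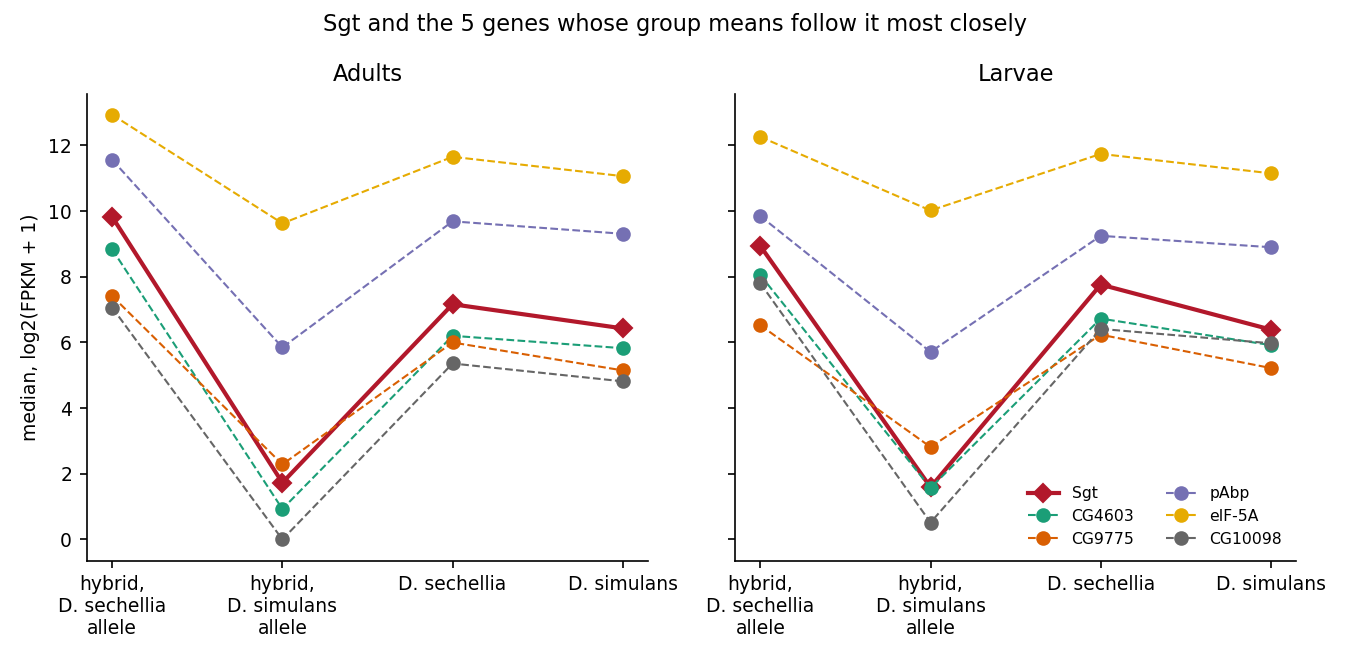
Medians of Sgt and of the 5 genes most like it, as log2(FPKM + 1) over 12 columns for each kind of column. Lines join the kinds for reading only. Each gene is highest in the D. sechellia allele columns and lowest in the D. simulans allele columns in both stages.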

How the data were processed

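The deposited values are FPKM, which the authors computed for 7836 genes in 96 columns, 48 of parental libraries and 48 of hybrid alleles. Per the submitters' processing notes, FastQC, Bowtie2 and Cufflinks were used. The sources used here do not give tool versions, genome builds or how hybrid reads were split by allele. Gene names come from the table. None could be matched to the reference gene table (0 names), so no position is given. FPKM give no read depth, so precision rests on replicates.

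A fit kept genes that reached 1 FPKM in 3 or more of its libraries. It used log2(FPKM + 1) and limma 3.58.1 under R 4.3.3, with a variance trend. These changes understate those of low genes. Benjamini-Hochberg adjustment ran over all genes of a contrast, with a threshold of 0.05. Adults and larvae were fitted apart, with 1 mean for each of 12 groups, and a hybrid is the sum of its allele columns. Stage was fitted over both stages. Allele columns were scaled to 1000000, with the library as a block in the allelic fit. The parental minus allelic difference came from 1 fit of scaled parental and allele columns, without that block. The scripts were tested on simulated data, in genes of higher mean level and with unscaled allele columns. The scaled allelic fits were not covered.

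Sgt and the lists were chosen with earlier results of these data known. Listed genes are named where they are the up to 4 of smallest p past the threshold per list and contrast, in part summarised here, or are Hop, CG7546 or CG1598. Trp1, the neighbours in rank and the genes with a near-empty allele were chosen after their values were seen. Alternatives were median-ratio rescaling, a pseudocount of 0.1, dropping the filter, dropping the variance trend, the replicate number as a block, the libraries of 1 genotype alone, unscaled allele columns, a total shared by both alleles, and each library left out in turn. Python 3.11.15 with matplotlib 3.10.9, pandas 2.3.3 and numpy 2.4.6 made the figures.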

Additional observations from a re-analysis of the deposited data

How the results depend on the processing

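Median-ratio rescaling gave 0.12 for the current medium in adult hybrids, -0.067 in larval D. sechellia, -0.25 and 0.030 for the interaction of generations in larval hybrids and larval D. simulans, and -0.14 for stage in D. simulans, each of the other sign and none called. It gave -0.051 in adults and 0.78 in larvae for D. sechellia minus D. simulans, 2.20 for adult hybrids minus the mean of the parents, and -0.080 for stage in hybrids, whose call was lost. With unscaled allele columns the adult allelic ratio of Sgt was 8.15 and the larval D. sechellia allele lay 1.06 above D. sechellia. With a total shared by both alleles the adult allelic ratio was 8.11, the adult parental minus allelic difference -8.75, and the D. simulans allele minus D. simulans -5.79 in adults and -5.58 in larvae. With a pseudocount of 0.1 the current-medium difference of the larval allelic ratio was 0.0019, and the adult and larval allelic ratios were 6.68 and 6.94. The causes were not tested.

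With 1 library left out at a time no call on Sgt changed. The sign turned in 44 such fits, for media differences, all uncalled. In larvae the ranges were -0.043 to 0.14 (current) and -0.27 to 0.085 (interaction) in D. simulans, -0.060 to 0.11, -0.17 to 0.00033 (previous) and -0.30 to 0.047 in D. sechellia, -0.12 to 0.090 for the difference of the current-medium effects between these species, and -0.17 to 0.13 and -0.19 to 0.42 in hybrids. In adults they were -0.11 to 0.087 and -0.14 to 0.26 in hybrids, and -0.058 to 0.96 for the current medium in the allelic ratio, where adult OO replicate 2 alone turned it. The parental minus allelic difference ran from -7.15 to -6.64 in adults and from -6.70 to -6.24 in larvae.

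The replicate numbers were not taken to pair the samples. Deviations of same-numbered libraries had a mean correlation of 0.0085 in adults and 0.036 in larvae, against -0.0046 and -0.018 for other numbers. Single same-numbered pairs ran from -0.74 to 0.61 in adults and from -0.73 to 0.76 in larvae. They were over 0.1 in 46 of 198 adult and 76 of 198 larval pairs. With the replicate number as a block every estimate was the same, such as -0.59 for stage in D. sechellia, and no call on Sgt changed. Fits with no filter and with no variance trend left each direction and each call on Sgt as given, and fits of 1 genotype alone did so for the 18 media results they were run on. No read depth is known, so what the D. simulans allele columns could miss cannot be stated.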
